A study of Mus musculus with 8 samples.

Results

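Gm28438, Gm28437, Gm10925, Gm28661 and Gm29216 are 5 pseudogenes that lie side by side on mouse chromosome 1 and copy a stretch of the mitochondrial genome. They were chosen by name from an earlier comparison of these same libraries in which they were higher in the mutant, so their own differences between the groups are given as a description with no test. The 5 were found by gene identifier among 52636 identifiers in the count table, and all 5 were among the 17378 genes that passed the filter on low counts. RNA was sequenced from S0 cells of mouse fetal liver at embryonic day 12.5, in 4 wild-type (WT) and 4 double knockout (DKO) libraries. S0 cells are the sorted fraction that lacks the lineage markers used and both CD71 and Ter119, labelled as erythroid precursors. DKO embryos lacked Vps13a and Vps13c, which encode lipid transfer proteins of membrane contact sites. They came from intercrosses of Vps13a+/-/Vps13c-/- mice, with a Vps13a allele (tm1d) made by Cre recombination and a Vps13c knockout allele. The mice of the study were kept on a C57BL/6J background. Both parents in these intercrosses lack Vps13c, so WT embryos cannot be littermates of the DKO embryos. The sources do not say which crosses or mothers the WT embryos came from. The sources do not say whether each library was 1 embryo, so every p-value below measures the spread between these libraries. Total counts were 42114489 to 50886469 in WT and 36981439 to 42587815 in DKO.

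A nuclear copy of mitochondrial DNA, or NUMT, is a piece of the mitochondrial genome that was inserted into a chromosome in the germ line. The mitochondrial genome encodes subunits of the respiratory chain and ATP synthase, together with the rRNAs and tRNAs that translate them, and it is transcribed as long precursors that are cut at the tRNAs. A young NUMT is nearly identical to its source, so a short read from a mitochondrial transcript may match the chromosome as well as the mitochondrial genome. Mitochondrial DNA is inherited through the mother and differs at a few bases between laboratory strains. An aligner places each read by the reference sequence, so the base that an animal's mitochondrial DNA carries at such a site can decide where the read is counted. In the text below the mitochondrial gene that a pseudogene copies is called its parent.

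All 7 genes annotated in this neighbourhood of chromosome 1 (GRCm38) were such copies, each an unprocessed pseudogene on the minus strand, together spanning chr1:24611535-24616197, or 4663 bases. In the order of the mitochondrial genes, Gm29216 (chr1:24615706-24616197) copies bases 1054 to 1545 of mt-Co1, and Gm28661 (chr1:24614885-24615565) copies mt-Co2. Both parents encode catalytic subunits of cytochrome c oxidase. Gm10925 (chr1:24613974-24614651) copies mt-Atp6, a subunit of ATP synthase, and Gm28437 (chr1:24613189-24613971) copies mt-Co3, the remaining mitochondrial subunit of cytochrome c oxidase. Gm28438 (chr1:24612775-24613119) copies mt-Nd3, a subunit of complex I. The 2 further copies that are not among the 5 are Gm10222 (chr1:24612407-24612700), which copies mt-Nd4l, and Gm28439 (chr1:24611535-24612410), which copies the first 876 of the 1378 bases of mt-Nd4. Both of those parents encode complex I subunits too.

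The distance between neighbouring copies on the chromosome was that between their parents in the mitochondrial genome, with 1 exception. Gm28438 and Gm10222 were separated by 74 bases, and mt-Nd3 and mt-Nd4l by 73 bases over the matching bounds, a gap that holds the arginine tRNA gene mt-Tr. The 69-base gap between Gm28437 and Gm28438 corresponds to the place of the glycine tRNA gene mt-Tg. The chromosomal sequence between the copies was not analysed here.

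Compared over their full length in the GENCODE transcripts of GRCm38, Gm28661, Gm10925 and Gm28437 were identical to their parents over 681, 678 and 783 bases. Gm10222 and Gm28439 were also identical, over 294 and 876 bases. No 150-base read that lies wholly inside 1 of these 5 genes can tell the copy from the parent in this reference. The first 60 bases are shown for a pair without any difference, Gm28661 (chr1:24615506-24615565, minus strand) and mt-Co2 (chrM:7013-7072, plus strand).
Gm28661: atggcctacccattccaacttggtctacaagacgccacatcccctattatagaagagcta
mt-Co2: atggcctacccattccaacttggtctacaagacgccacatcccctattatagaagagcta

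Gm28438 differed from mt-Nd3 at 1 of 345 bases (99.7% identity), by T3C, where positions count from 1 at the first base of the gene and the mitochondrial base is written first. This base lies at chrM:9461 and chr1:24613117. Of the 196 windows of 150 bases that lie wholly inside Gm28438, 3 hold it (1.53%). Reads that run in over the start of the gene can hold it too, as can the mate of a read pair. That share leaves these out, so it is not the share of counted reads that hold the base. The differing base is in capitals in the first 60 bases of Gm28438 (chr1:24613060-24613119, minus strand) and mt-Nd3 (chrM:9459-9518, plus strand), shown because this pair divided its counts in opposite ways in WT and DKO.
Gm28438: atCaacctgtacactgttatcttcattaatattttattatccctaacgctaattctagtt
mt-Nd3: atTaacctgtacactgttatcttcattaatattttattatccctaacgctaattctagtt

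Gm29216 differed from mt-Co1 at 6 of 492 bases (98.8% identity), all near its 5′ end. In the numbering of mt-Co1, these were T1056A, C1057T, A1059G, A1060G, C1062A and A1066T. Of the 343 windows of 150 bases that lie wholly inside it, 13 hold at least 1 of them (3.79%), and reads that run over its start are again left out. They are in capitals in the first 60 bases of Gm29216 (chr1:24616138-24616197, minus strand) and the matching bases of mt-Co1 (chrM:6381-6440, plus strand), shown as the pair with the most differences.
Gm29216: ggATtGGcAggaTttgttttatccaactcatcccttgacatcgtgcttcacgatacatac
mt-Co1: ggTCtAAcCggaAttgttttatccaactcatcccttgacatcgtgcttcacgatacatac

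Counts were scaled to a common effective library size, the mean over the 8 libraries, and are called normalized counts. Gm28438 had 19.9, 18.1, 18.2 and 6.12 normalized counts in WT libraries 1 to 4, and 629, 829, 577 and 585 in DKO libraries 1 to 4. Every DKO library was far above every WT library. The mean was 15.6 ± 6.36 for the 4 WT libraries and 655 ± 118 for the 4 DKO libraries (SD), which is 42.0-fold higher (log2 fold change 5.39, SE 0.37). WT libraries held only 19, 21, 21 and 7 counts of Gm28438. The ratio of the summed counts, scaled for library size, was 42.4 with a 95% interval of 33.3 to 54.8, which covers counting error only.

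The other members differed less. Gm28437 had 1412, 1421, 913 and 1103 normalized counts in WT, against 3218, 1957, 2183 and 2805 in DKO. The groups did not overlap (1212 ± 248 against 2541 ± 577, log2 fold change 1.07, SE 0.19). Gm10925 had 2473, 1408, 1369 and 1817 normalized counts in WT, against 3034, 3331, 10686.5 and 4338 in DKO. The groups did not overlap either (1767 ± 513 against 5348 ± 3603), but DKO library 3 stood far above the others. The log2 fold change of Gm10925 was 1.60 (SE 0.40) and 1.02 without that library.

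Gm28661 and Gm29216 overlapped between the groups. Gm28661 had 2610, 380, 1453 and 820 normalized counts in WT, against 5667, 2113, 1126 and 2360 in DKO (log2 fold change 1.10, SE 0.60). The highest WT library was above 3 of the 4 DKO libraries, and the log2 fold change was 0.51 without DKO library 1 and 1.67 without WT library 1. Gm29216 had 405, 928, 728 and 830 normalized counts in WT, against 2219, 936, 516 and 1359 in DKO (log2 fold change 0.80, SE 0.41). Its DKO library 3 was below 3 WT libraries, and the log2 fold change was 0.38 without DKO library 1.

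**Figure D1:**
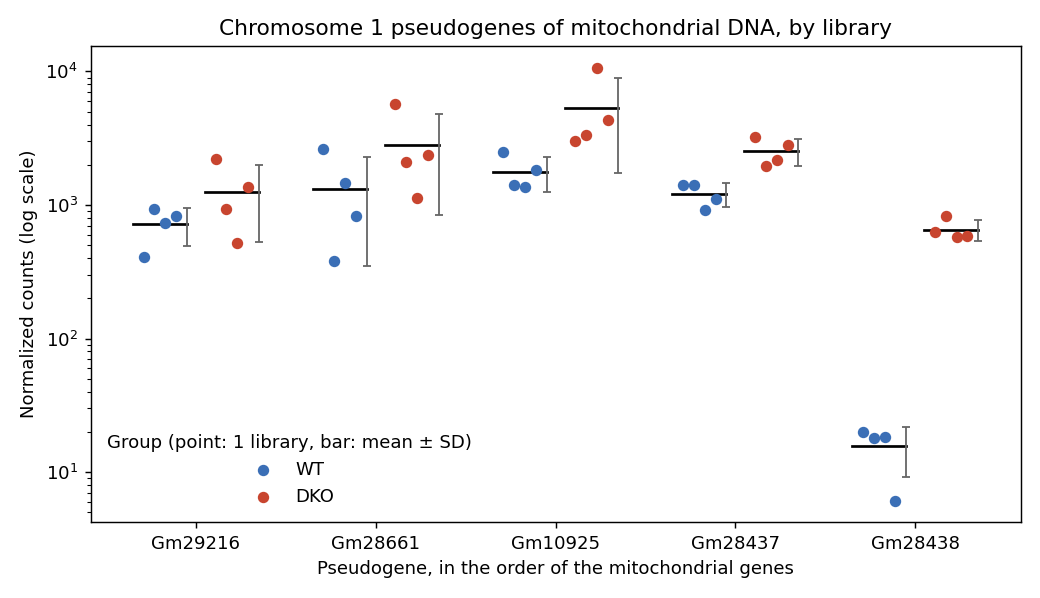
Normalized counts of the 5 pseudogenes (log axis) in each WT (blue) and DKO (red) library, libraries 1 to 4 from left to right, with the mean and SD of each group. The WT points of Gm28438 lie between 6.12 and 19.9 and its DKO points between 577 and 829, while the points of Gm28661 and Gm29216 overlap between the groups.

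Thus 5 of the 5 members had a higher mean in DKO, and in 3 of the 5 the lowest DKO library exceeded the highest WT library. The same held for 13.5% of all 17378 genes tested. Since the members were chosen on this comparison, nothing is read from the difference between these shares. Summed, the members held 6920, 4155, 4482 and 4576 normalized counts in WT, against 14768, 9167, 15089 and 11449 in DKO. They made up 0.00963% to 0.0157% of all counts in WT and 0.0204% to 0.0356% in DKO. Gm28438 was 0.134% to 0.435% of the members' counts in WT and 3.83% to 9.04% in DKO.

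Per length, Gm28438 was nearest to the lowest of the other members in DKO and far below all of them in WT. The mean normalized counts per 1000 bases in DKO were 7887 for Gm10925, 4136 for Gm28661, 3245 for Gm28437, 2556 for Gm29216 and 1899 for Gm28438. In WT the same values were 2606, 1932, 1548 and 1469 for the first 4, and 45.2 for Gm28438. By its mean normalized count, Gm28438 stood at percentile 9.41 of the genes tested in WT and at percentile 52.2 in DKO. Spread within a group was widest for Gm28661, whose highest library was 6.86 times its lowest in WT and 5.03 times in DKO. For Gm28438 in DKO this ratio was 1.44.

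The parents were read next, to ask whether counts shared with the members changed in the same direction. mt-Nd3 was lower in DKO, opposite to its copy. It had 251, 313, 343 and 294 normalized counts in WT, against 31.5, 38.4, 24.4 and 21.9 in DKO, with no overlap. The mean was 300 ± 38.5 for the 4 WT libraries and 29.1 ± 7.41 for the 4 DKO libraries (SD). The fitted log2 fold change was -3.36 (SE 0.29, edgeR adjusted p = 0.000346). The ratio of summed counts, WT over DKO, was 10.4 (95% interval 8.55 to 12.9, counting error only). Because reads can pass between mt-Nd3 and Gm28438, this test is no independent support for the change of the copy.

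The counts of the pair were placed almost wholly on the mitochondrial gene in WT and almost wholly on the chromosome in DKO. Gm28438 took 7.34%, 5.45%, 5.05% and 2.04% of the counts of the pair in WT libraries 1 to 4. It took 95.2%, 95.6%, 95.9% and 96.4% in DKO libraries 1 to 4. These shares rest on 259 to 416 counts per library in WT and 493 to 746 in DKO. Their exact (Clopper-Pearson) 95% intervals ran from 0.824% to 11.2% over the WT libraries and from 93.3% to 97.7% over the DKO libraries. These intervals take the deposited counts as numbers of reads. The sum of both genes was 316 ± 39.0 normalized counts in the WT libraries and was 684 ± 125 in the DKO libraries, 2.17-fold, against 42.0-fold for the copy alone.

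Gm28437, Gm10925 and Gm28661 did not divide their counts with their parents by genotype in this way. Gm28437 took 62.8 ± 5.57% of the counts that it shared with mt-Co3 in WT and 67.4 ± 6.82% in DKO. Gm10925 took 63.6 ± 8.30% and 72.1 ± 8.35% of those with mt-Atp6, and Gm28661 took 61.8 ± 17.6% and 65.3 ± 14.1% of those with mt-Co2. All 3 pairs have identical sequences, and the WT and DKO ranges overlapped in each. For Gm28661 the share ranged from 40.5% to 82.3% between WT libraries alone. Gm29216 held 0.752 ± 0.236% of the summed counts of Gm29216 and mt-Co1 in WT and 0.755 ± 0.370% in DKO, also overlapping. It covers only 31.8% of mt-Co1, so this sum also holds counts from bases without a copy here. The share of Gm29216 thus cannot show whether the reads that this pair can exchange were divided by genotype.

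**Figure D2:**
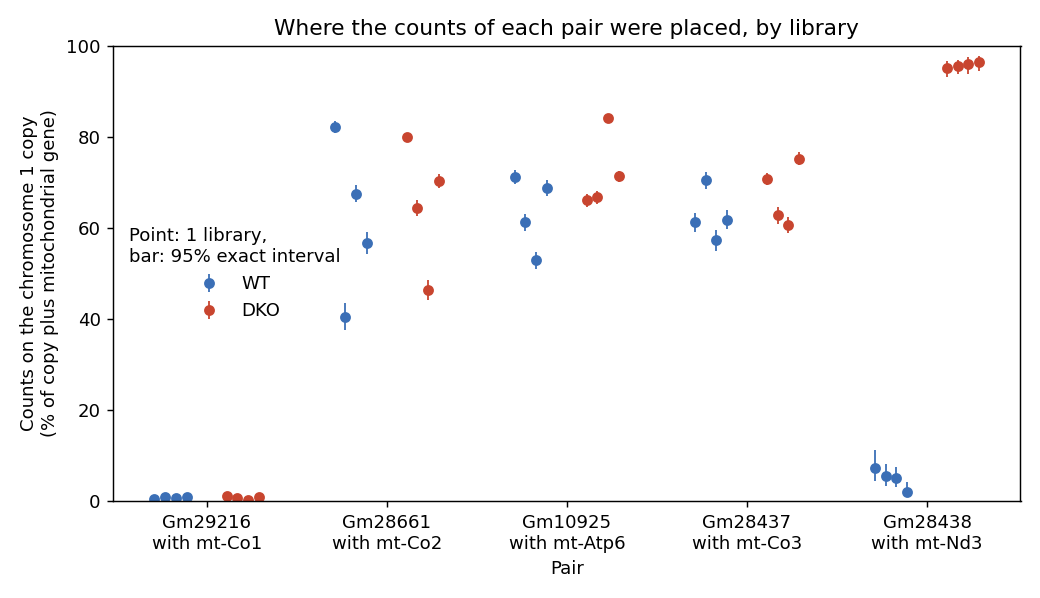
Share of the counts of each pair, copy plus parent, that was placed on the chromosome 1 copy (percent), in each WT (blue) and DKO (red) library, with exact 95% binomial intervals. Gm28438 lies between 2.04% and 7.34% in WT and between 95.2% and 96.4% in DKO, and the ranges of the other 4 members overlap.

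Summed with their parents, the pairs were higher in DKO by ratios nearer to each other than those of the copies. The ratio of the mean sums, DKO over WT, was 1.69 for Gm29216 with mt-Co1, 1.95 for Gm28437 with mt-Co3, 2.10 for Gm28661 with mt-Co2, 2.17 for Gm28438 with mt-Nd3 and 2.58 for Gm10925 with mt-Atp6. The members together took 4.88 ± 1.16% of the counts of the 5 pairs in WT and 7.04 ± 1.15% in DKO, ranges that overlap. Most of these counts are of mt-Co1. Without Gm29216 and mt-Co1 the shares were 61.3 ± 6.53% and 72.5 ± 3.69%, also overlapping.

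Of the parents that match the members, mt-Co1, mt-Co2, mt-Atp6 and mt-Co3 rose in DKO. On the log2 scale they rose by 0.76, 0.998, 0.83 and 0.76, with edgeR adjusted p of 0.00115, 0.00346, 0.00604 and 0.0158. In each, the lowest DKO library exceeded the highest WT library. Reads can pass between these parents and their copies. The tests are therefore of counts placed on the parents and are no independent support for the change of the copies. mt-Co3 had an adjusted p of 0.0502 without WT library 2 and 0.0519 without WT library 4. Among all genes tested, 10.7% rose and 10.8% fell at an adjusted p under 0.05.

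The 2 copies outside the 5 extend the stretch downstream of Gm28438. Gm28439 had 227, 166, 176 and 174 normalized counts in WT, against 603, 295, 424 and 557 in DKO, without overlap (log2 fold change 1.34, SE 0.26, edgeR adjusted p = 0.00885). Its parent mt-Nd4 rose with a log2 fold change of 0.46 (adjusted p = 0.00653). Gm28439 took 0.339% to 0.468% of the counts of that pair in WT and 0.471% to 0.945% in DKO. Gm10222 had 112, 125, 63.4 and 64.7 normalized counts in WT, against 101, 136, 254 and 186 in DKO, and did not pass the test (log2 fold change 0.89, SE 0.39, adjusted p = 0.128). Its parent mt-Nd4l had a log2 fold change of -0.14 (adjusted p = 0.820), and its sign turned when WT library 2 or DKO library 4 was left out. All 7 copies had a higher mean in DKO.

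The mitochondrial mRNA genes without a copy in this stretch give the level of mitochondrial transcripts that reads cannot exchange with these pseudogenes. mt-Nd1, mt-Nd2, mt-Nd5, mt-Nd6 and mt-Cytb, subunits of complex I and III, all rose in DKO. Their changes on the log2 scale were 0.56, 0.78, 0.52, 0.50 and 0.63, and the adjusted p-values from edgeR 0.0244, 0.00187, 0.00454, 0.00844 and 0.00442. Of all 13 mitochondrial mRNA genes, 10 rose and 1, mt-Nd3, fell, and mt-Atp8 and mt-Nd4l did not pass. The fall of mt-Nd3 is of counts placed on that gene, since its sum with Gm28438 was 2.17-fold higher in DKO. The median log2 fold change of the 13 was 0.59, against 0.03 over all genes tested. Summed, the 13 genes held a mean of 501760 ± 12208 normalized counts in WT, against 774149 ± 58181 in DKO. This 1.54-fold difference had a two-sided p of 0.0286 in an exact permutation test, the smallest that 70 arrangements allow, and all 4 DKO libraries were above all WT libraries.

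mRNA genes inside the stretch that the copies span had far fewer counts per length than the mRNA genes outside it. mt-Atp8, which encodes a subunit of ATP synthase, lies inside it between the parents of Gm28661 and Gm10925 and has no annotated copy of its own. In WT the mean normalized counts per 1000 bases were 1869 for mt-Atp8, 1443 for mt-Atp6, 907 for mt-Co3, 893 for mt-Co2, 863 for mt-Nd3 and 331 for mt-Nd4l. Outside the stretch they were 157774 for mt-Cytb, 101707 for mt-Nd1, 34836 for mt-Nd6, 28490 for mt-Nd2 and 16847 for mt-Nd5. mt-Co1 and mt-Nd4, which are copied only in part, had 61670 and 34243. The same division of mRNA genes held in DKO, as the plot of levels per length shows. The authors removed alignments with a mapping quality below 20, and a read that matches 2 places equally well gets a low mapping quality from the aligner used. How many reads were removed in this way was not analysed here, and the levels of copies and parents in the stretch carry that limit.

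**Figure D3:**
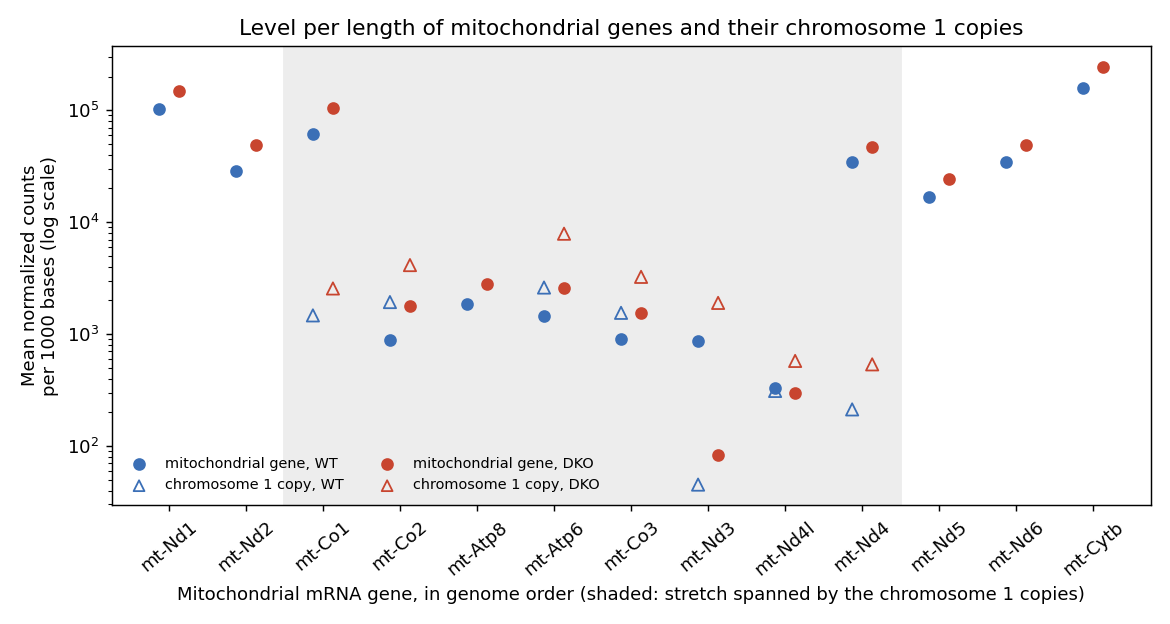
Mean normalized counts per 1000 bases (log axis) of the 13 mitochondrial mRNA genes in genome order (circles) and of their chromosome 1 copies (triangles), in WT (blue) and DKO (red). The genes from mt-Co2 to mt-Nd4l lie far below the genes outside the shaded stretch, which the copies span, and mt-Nd3 is above its copy in WT (863 and 45.2) and below it in DKO (83.5 and 1899).

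Counts placed on the tRNA genes on either side of mt-Nd3 fell as well. mt-Tg ends 3 bases before the differing base of mt-Nd3, and held 33, 41, 41 and 29 counts in WT and 1, 0, 0 and 1 in DKO. It fell (edgeR adjusted p = 0.00321), with a ratio of summed counts, WT over DKO, of 58.6 (95% interval 15.9 to 488). mt-Tr begins 347 bases after that base and held 20, 35, 42 and 32 counts in WT and 0, 0, 0 and 2 in DKO. It fell too (adjusted p = 0.0064), with a ratio of 52.5 (14.2 to 438). The chromosomal counterparts of both tRNA genes lie between the annotated copies and have no row of their own in the table. Both tRNA genes are shorter than a full read, so a read over either can also run into mt-Nd3 or another neighbour. Their tests are therefore of counts placed on these genes and are no independent support for the fall of mt-Nd3. Whether the tRNAs themselves were lower, or reads were placed on the chromosome instead, was not tested. The gap that holds mt-Tr is where the spacing differed, at 74 bases on the chromosome against 73. mt-Co3 ends 71 bases before the differing base and rose (log2 fold change 0.76). mt-Nd4l begins 416 bases after it and did not pass (log2 fold change -0.14).

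mt-Nd3, mt-Tg and mt-Tr were the only mitochondrial genes tested whose placed counts fell. Of the 22 mitochondrial tRNA genes, 20 were tested, 16 rose, 2 fell and 2 did not pass, with a median log2 fold change of 1.23. The nearest tRNA genes downstream, mt-Th, mt-Ts2 and mt-Tl2, begin 2085 to 2210 bases from the differing base and rose by 1.95, 2.09 and 2.09 on the log2 scale (edgeR adjusted p of 0.0106, 0.00895 and 0.0107). Of the 2 rRNA genes, mt-Rnr2 rose (0.83, adjusted p = 0.00749) and mt-Rnr1 did not pass (0.80, adjusted p = 0.0614). Which base the mitochondrial DNA of these embryos carried at the site was not tested, since the files hold counts and no reads.

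**Figure D4:**
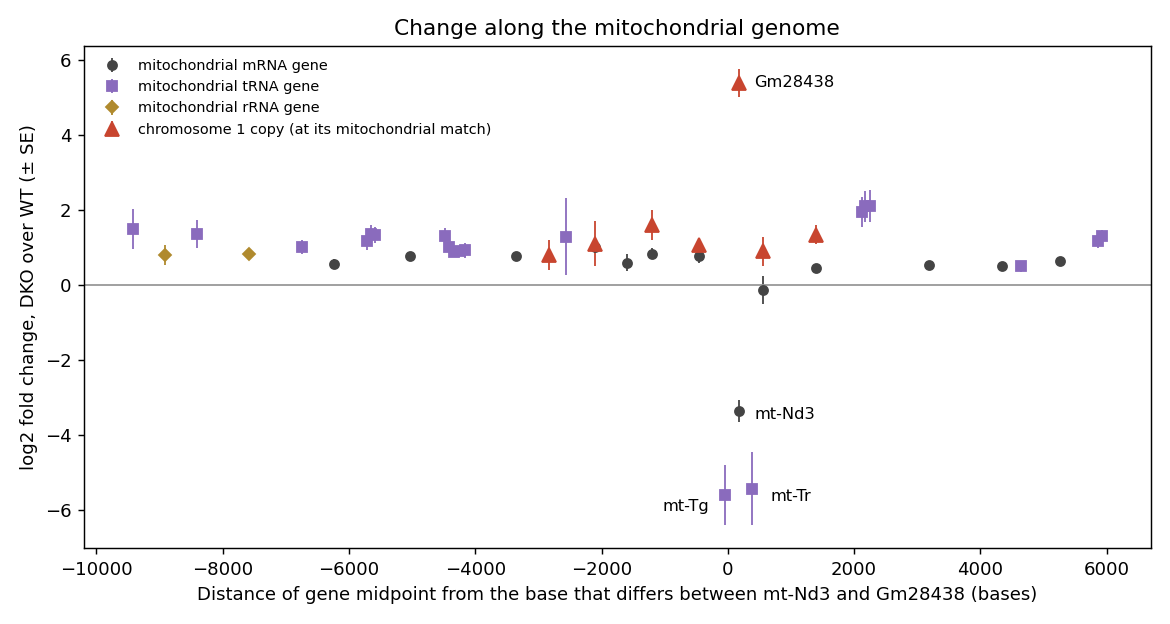
Log2 fold change (DKO over WT, ± SE) of each tested mitochondrial gene, and of the 7 chromosome 1 copies at the place of their match, against the distance in bases of the gene midpoint from the base that differs between mt-Nd3 and Gm28438. mt-Nd3, which holds that base, and the tRNA genes that flank it, mt-Tg and mt-Tr, are far below 0. Gm28438 is at 5.39, and every other point except mt-Nd4l, at -0.14, lies above 0.

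Nuclear copies of mitochondrial DNA elsewhere in the genome were compared next. Outside the stretch, 10 annotated pseudogenes matched a mitochondrial gene over at least 100 bases at 90% identity, 9 were in the table and 3 passed the filter on low counts. All 3 lie on chromosome 2. Gm13339 rose from 9.52 ± 1.24 to 45.6 ± 9.05 normalized counts (SD, n = 4 each, log2 fold change 2.25, edgeR adjusted p = 0.00947). Gm13340 and Gm13341 did not pass (log2 fold change 0.85 and 1.32, adjusted p = 0.067 and 0.0599), although the groups did not overlap for either. The count of 1 that rose was 0 to 3 under other settings.

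Genes of the nuclear machinery that replicates, transcribes and processes mitochondrial nucleic acids mostly did not pass. Of 29 such genes, 3 rose and 5 fell, beside 10.7% and 10.8% of all genes tested, and 21 did not pass. Their median log2 fold change was -0.13, against 0.03 over all genes. The genes whose log2 CPM (with 0.5 added) followed the summed members most closely over the 8 libraries were B330016D10Rik, Isg20, Notum, Snord65 and Fitm1, with Pearson's r of 0.980 to 0.988. Both groups of libraries enter these values, so a gene that is higher in DKO can score high for that reason alone.

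Some other measures moved with the genotype too. Nnt, the mitochondrial transhydrogenase gene that carries a deletion in C57BL/6J and not in C57BL/6N, had 320, 630, 620 and 956 normalized counts in WT, against 2256, 1763, 1792 and 2640 in DKO (log2 fold change 1.74, edgeR adjusted p = 0.00525). The lowest DKO library exceeded the highest WT library, as for Gm28438. The parts of strain background and of the maternal line in the placement of the counts were not tested. In these groups neither can be told apart from genotype. Xist was at most 30.1 normalized counts in WT, and was 27043, 18029, 62.3 and 21393 in DKO. Ddx3y was 2911 to 3354 in WT and 2516 in DKO library 3, and did not exceed 41.0 in any other DKO library. These genes mark XX and XY cells, so the groups differed in sex composition, and the part of sex in the levels of the members was not tested.

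Of the targeted genes, Vps13a fell from 1943 ± 130 to 794 ± 194 normalized counts (edgeR adjusted p = 0.00247). Vps13c was 583 ± 74.9 in WT and 816 ± 279 in DKO (adjusted p = 0.182). Counts over a whole gene do not show whether its product is lost. The erythroid genes Klf1 and Gata1 were present in all libraries, at 8214 normalized counts or more in WT and 6649 or more in DKO. Markers of other cell types differed between the groups: 6 of 7 mesenchyme markers rose (summed 2006 to 5560 normalized counts in WT, 12432 to 42287 in DKO), and 4 of 7 tested neutrophil and myeloid markers fell (101829 to 132954 against 5332 to 44952), with Ly6g at 0 in every library. Hepatoblast markers summed to 485853 to 674598 in WT and 156430 to 580506 in DKO, and none of 8 passed. Macrophage markers summed to 4864 to 7355 in WT and 1369 to 4383 in DKO, with 1 of 8 lower, and Adgre1, C1qa, C1qb and C1qc were at 0 in at least 1 library. Of 7 megakaryocyte and 7 endothelial markers, 1 each fell, with sums of 55304 to 63869 against 40852 to 118382, and 12658 to 13149 against 8585 to 14763. Erythroid markers summed to 61882 to 121036 in WT and 45797 to 136394 in DKO, and 2 of 12 rose. In bulk RNA, fewer cells of a type and less RNA per cell cannot be told apart, and the part of cell composition in the levels of the members was not tested.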

How the data were processed

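Polyadenylated RNA of sorted S0 cells was made into cDNA by template switching and sequenced as 150-base read pairs. Per the submitters' processing notes, reads were trimmed with fastp 0.21.0, aligned to mm10 with HISAT2 2.2.1 and quantified with StringTie 1.3.3b. The authors removed alignments of mapping quality below 20 and deposited gene counts, which they produced from the StringTie output with a program of that package. The strand setting is not given in the sources used here.

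Of 52636 gene identifiers, 52489 matched the GENCODE M21 annotation without version. Counts were filtered with filterByExpr, scaled by TMM and tested with edgeR 4.0.16 (R 4.3.3, robust quasi-likelihood, Benjamini-Hochberg over 17378 genes), where calling a gene also required a log2 fold change beyond 1 besides the adjusted p under 0.05. On simulated data for DKO against WT (16899 genes), 65 of 99 genes changed by 1.5 and 85 of 99 changed by 2 on the log2 scale were called in the right direction, and 2 of 16701 unchanged genes were called. The simulation gave each gene the trended dispersion, with no spread of its own and no difference in sex or cell composition. It drew changed genes from those above a floor on the mean count. Real data may thus yield fewer right calls and more wrong ones. Nuclear pseudogene transcripts were compared with the 37 mitochondrial gene transcripts by blastn 2.17.0, since no genome sequence was used. Intervals take these counts as numbers of reads, which was not checked here, and cover counting error only. PCR reads without molecular identifiers are not independent molecules. The replicate numbers of the sample titles were not used to pair libraries in the main test. The text names the members, the other genes annotated beside them, their parents, other nuclear copies past the filter, Nnt, Xist, Ddx3y, the targeted genes, the 5 genes most like the members and members of fixed lists. mt-Th, mt-Ts2 and mt-Tl2 were named after their values were seen. Members and lists were chosen with earlier results of these data known. Alternatives were other scalings and filters, a replicate block, halved counts, DESeq2 1.42.0 and leaving out each library.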

Additional observations from a re-analysis of the deposited data

Results flagged for a closer look

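Of 50 groups of 4 libraries examined, 7 had a library whose gap to its neighbour, as a share of the group's range, passed Dixon's 95% critical value, and chance alone flags about 1 group in 20. Gm28438 was lowest in WT library 4, at 6.12 normalized counts. Gm10925 was highest in DKO library 3, at 10686.5. Gm28439 was highest in WT library 1, at 227. mt-Nd4 was highest in DKO library 3, at 71020.5. mt-Tg was lowest in WT library 4, at 25.4, and mt-Tr was above 0 in DKO library 4 alone, at 2.09. The share of the members in the counts of the 5 pairs was highest in WT library 1, at 6.61%.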

How the results depend on the processing

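The direction of all 5 members held under every alternative that gave a value. The alternatives reuse the libraries on which the members were chosen, so this is no independent support for that direction. The log2 fold change of Gm28438 was 5.11 to 5.52 when single libraries were left out, with 5.11 without WT library 4, and had no value when 10 counts were required in every library. Without single libraries that of Gm28437 was 0.94 to 1.17, that of Gm10925 1.02 to 1.80, that of Gm28661 0.51 to 1.67 and that of Gm29216 0.38 to 1.06. mt-Nd3 stayed between -3.53 and -3.25, with an adjusted p of at most 0.0101. mt-Nd4l ranged from -0.35 to 0.11 without single libraries, at 0.109 without WT library 2 and 0.0195 without DKO library 4. The summed mitochondrial mRNA level differed by 0.577 to 0.646 (log2) without single libraries, at the smallest p these allow, 0.0571. Against all 13 mitochondrial mRNA genes in place of the parents, the members held 0.992% in WT and 1.59% in DKO, and Gm28438 held 0.00311% and 0.0854%.

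Of the other nuclear copies, 3 rose under upper-quartile scaling, 2 with at least 10 counts in every library, 2 with halved counts, 3 by DESeq2 and 0 with a replicate block. Genes called higher numbered 1076, 613 with the replicate block and 566 to 1148 without single libraries. Genes called lower numbered 423 and 243 to 521 without single libraries. Without WT library 1, 2 or 4 the genes called higher numbered 566, 650 and 633, and those called lower 258, 260 and 243. Libraries with the same replicate number in their titles showed little likeness: the correlations of their deviations were -0.10 to 0.05, and 1 of 8 correlated best with its own number. Other ways of pairing the libraries were not examined. Upper-quartile scaling moved the median log2 fold change of all genes from 0.03 to 0.14. WT counts of Gm28438 and DKO counts of mt-Tg and mt-Tr limit the precision of their ratios.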
